A study of Mus musculus with 2 samples.

Results

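The antizymes and the enzymes of polyamine synthesis were examined in poly(A)-selected RNA of the mouse testis. The 10 genes, taken from the tables by symbol, were Oaz1, Oaz2, Oaz3, Odc1, Azin1, Azin2, Srm, Sms, Sat1 and Amd1. They are 10 of the 43346 Ensembl genes quantified, and all 10 symbols were matched by gene identifier. Testes of adult male C57BL/6J mice aged 8 weeks gave 1 group of 2 libraries, replicate 1 and replicate 2, with no treatment and no genetic change named. The mice are described as littermates, but both libraries carry the same donor identifier, so the SD measures only the spread between these samples, which may be technical. With 1 group there was no contrast between conditions and no test. Pairs of values below are for replicate 1 and then replicate 2 unless a sentence says otherwise.

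Polyamines (putrescine, spermidine and spermine) are small positively charged molecules that bind nucleic acids and are made in every cell. Ornithine decarboxylase makes putrescine, spermidine and spermine synthase then add aminopropyl groups donated by decarboxylated S-adenosylmethionine, and spermidine/spermine acetyltransferase marks the products for breakdown or export. Antizymes bind ornithine decarboxylase and limit polyamine uptake, and at least some of them send the decarboxylase to the proteasome. Antizyme inhibitors, which resemble the decarboxylase but lack its activity, bind the antizymes in its place. Antizyme 3 is known as a germ cell antizyme of the haploid spermatid.

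Antizyme mRNA is decoded through a programmed ribosomal frameshift, in which polyamines raise the share of ribosomes that pass a stop codon by skipping 1 base. The coding sequences of the models Oaz1-207, Oaz2-206 and Oaz3-201 each leave out 1 base at that place. The windows of 39 bases around it are shown because they hold the stop codon that the frameshift passes. They were not chosen to span every sequence that acts on the frameshift. Sequences are those of GENCODE M21 transcripts on mm10, 5′ to 3′ on the transcribed strand, and the capitals mark the codon before the stop codon and the stop codon itself.
Oaz1 (chr10:80828277-80828315, + strand): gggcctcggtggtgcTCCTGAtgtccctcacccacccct
Oaz2 (chr9:65686254-65686292, + strand): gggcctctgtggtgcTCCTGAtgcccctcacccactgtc
Oaz3 (chr3:94436014-94436052, - strand): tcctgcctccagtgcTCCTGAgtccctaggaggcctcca
The 6 capitals were the same in all 3 genes. Over the whole window, 33 of the 39 bases were identical between Oaz2 and Oaz1. Between Oaz3 and Oaz1 16 of 39 bases were identical, and between Oaz3 and Oaz2 17 of 39.

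The libraries held 49023238 and 51465728 expected counts over Ensembl genes, the reads the authors' program assigned to each gene. Levels are given as deposited TPM, the number of transcripts of a gene in a fixed total of transcripts. TPM is corrected for the length of the transcript models used, so that genes can be compared as far as those models hold. Markers of the testis cell types were present: elongating spermatid markers such as Prm1 and Tnp2 summed to 75546 and 71751 TPM, and all 8 were at 1 TPM or more in both libraries. In bulk RNA, fewer cells of a type and less RNA per cell cannot be told apart. Sertoli, Leydig and spermatogonial markers were each detected in full, at 7 of 7, 5 of 5 and 5 of 5 genes. Of 8 epididymis markers, 1 was at 1 TPM or more in both libraries, and their sum was 668 TPM in replicate 1 and 3.70 TPM in replicate 2.

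Oaz3 was the most abundant of the 10 genes by a wide margin. It stood at 1846 and 1996 TPM, a mean of 1921 ± 106 TPM (SD, n = 2), from 69297 and 77792 expected counts. By mean TPM it ranked 25 among 21461 nuclear protein-coding genes. The gene lies on the minus strand at chr3:94432414-94443915 (mm10, as are all positions here), and 1 transcript of 1132 bases stood for it in the quantification. In GENCODE M21 the gene has 8 transcripts, and the model used for the sequence window is not the one quantified. The M21 model of the quantified transcript is shorter than 1132 bases, and holds 657 windows of the length of a read. The TPM of Oaz3, and the ratios and shares taken from it, rest on the longer model. Levels with the shorter model were not tested. The deposited interval for Oaz3, whose coverage is not stated, ran over 1815 to 1843 TPM in replicate 1 and 1964 to 1992 TPM in replicate 2. Both intervals lie just under the deposited TPM and around the deposited posterior mean of 1829 and 1978 TPM.

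Oaz1 (chr10:80826656-80829290, + strand), the antizyme found in most tissues, was at 279.0 and 277.6 TPM (278 ± 0.99, SD, n = 2) from 6294 and 6579 expected counts, and ranked 564. Oaz2 (chr9:65668001-65690300, + strand), a second broadly expressed antizyme, was at 132.0 and 127.2 TPM (130 ± 3.42, SD, n = 2) and ranked 1293. The 2 libraries of each gene were close together, and the 3 antizymes did not overlap. Oaz3 was 6.61 and 7.19 times the level of Oaz1 (mean 6.90 ± 0.406, SD, n = 2) and 13.98 and 15.69 times that of Oaz2. Oaz2 was 0.473 and 0.458 times Oaz1. With protein-coding transcripts alone, added after the data were seen, Oaz2 was 0.283 and 0.325 times Oaz1, and Oaz3 was 23.7 and 22.4 times Oaz2. By expected counts, which are not divided by length, Oaz2 over Oaz1 averaged 1.13. Of all antizyme TPM, Oaz3 made up 81.8% and 83.1%, Oaz1 12.4% and 11.6%, and Oaz2 5.85% and 5.30%.

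**Figure D1:**
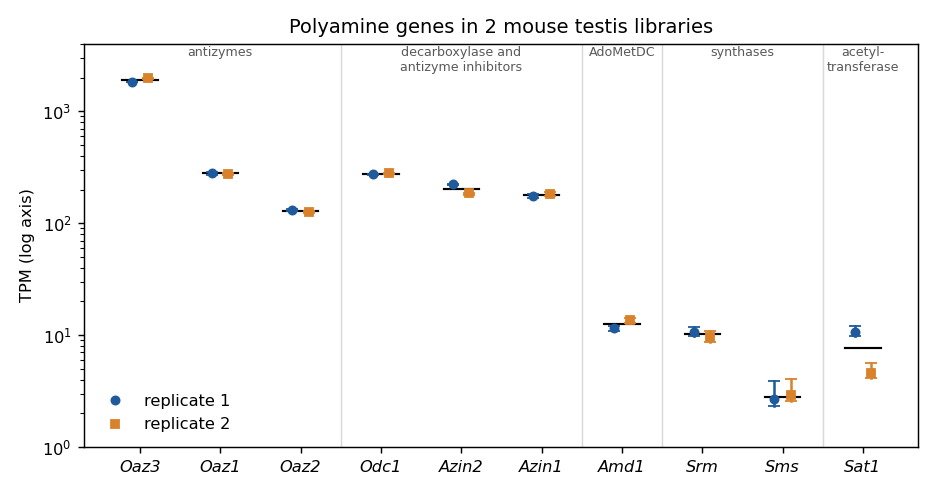
Deposited TPM (log axis) of the 10 genes in replicate 1 (circles) and replicate 2 (squares). Horizontal black lines are means of the 2 libraries, and vertical coloured lines with ticks span the deposited TPM interval of each library. Oaz3 stands at 1846 and 1996 TPM, 5 genes lie between 127 and 279 TPM, and the other 4 lie under 14 TPM; the libraries are farthest apart for Sat1.

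The level of a gene hides which of its transcripts carry the reads, so the deposited transcript shares were examined next. The share of a transcript is the percent of its gene's TPM, and the class of each transcript is that of GENCODE M21. Oaz1 had transcripts annotated as protein-coding at 98.7% and 98.5% of its TPM. Its leading model, Oaz1-205 (538 bases, with its own first exon), took 59.4% and 58.2%, and Oaz1-207 (1044 bases) took 33.7% and 36.8%. By expected counts, which are not divided by length, the order was the other way round: Oaz1-207 held 50.7% and 54.8% of the counts and Oaz1-205 35.8% and 34.3%. The order of these transcripts thus depends on the scale, since the leading one is the shorter. A copy also bears on it: 94.6% of the 76-base windows of Oaz1-205 and 47.3% of those of Oaz1-207 occur letter for letter in the pseudogene Oaz1-ps, which was itself given 7.01 and 10.1 TPM.

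Oaz2 was led by the coding transcript Oaz2-206 at 54.5% and 66.9%, and by the retained-intron transcript Oaz2-205 at 39.4% and 29.3%. In TPM the coding transcripts of Oaz2 summed to 77.9 and 89.0, and the retained-intron transcript stood at 51.99 and 37.29. The retained-intron share was lower in replicate 2 than in replicate 1, while the gene's TPM moved by less than 5 units. The split within the coding class was uncertain, since Oaz2-206 held 46.9% and 45.9% by the deposited posterior mean, with Oaz2-201 at 10.13% and 21.04%. Oaz3 had 1 quantified transcript, so its share of 100% comes from the annotation used and says nothing of its splicing.

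**Figure D2:**
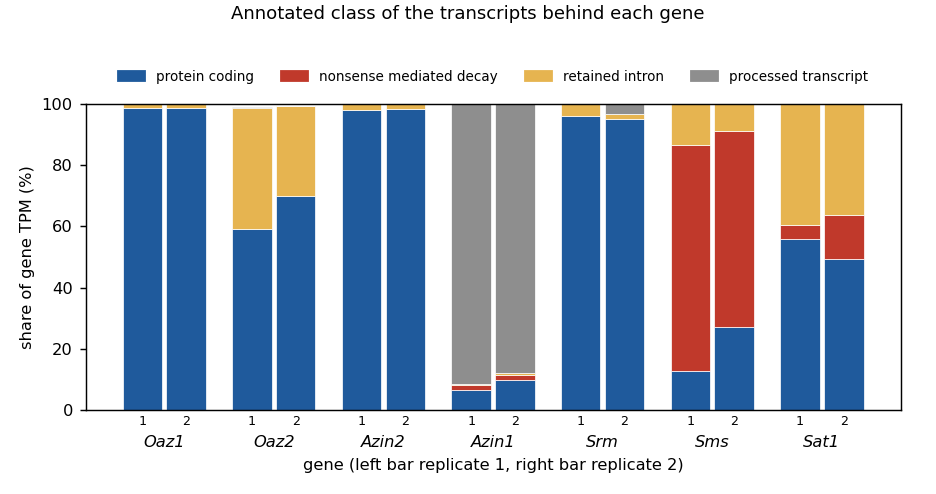
Share of each gene's TPM (%) in transcripts annotated as protein-coding, nonsense-mediated decay, retained intron and processed transcript, with replicate 1 as the left bar and replicate 2 as the right bar of each gene. Oaz3, Odc1 and Amd1 are left out because 1 transcript each was quantified; the non-coding class takes 91.5% and 88.0% of Azin1, and the decay class takes 73.9% and 64.0% of Sms. A bar that ends below 100 misses an Oaz2 transcript that has no GENCODE M21 class.

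Odc1 (chr12:17544794-17551505, + strand) encodes ornithine decarboxylase, the rate-limiting enzyme and the protein that antizymes bind. It was at 272.6 and 278.5 TPM (276 ± 4.16, SD, n = 2) from 25804 and 27456 expected counts. Its level could not be set apart from that of Oaz1, since the libraries of the 2 genes overlapped and their means differed by 2.79 TPM, less than the SD of Odc1. The summed antizyme TPM was 8.28 and 8.62 times that of Odc1 (mean 8.45 ± 0.242, SD, n = 2). This is a ratio of RNA levels, and breakdown of the enzyme was not measured. The M21 model of Odc1 is shorter than the quantified transcript of 2547 bases, and it holds 2133 windows of 76 bases. Of these windows, 30.1% occur in transcripts of 10 other annotated genes, all pseudogenes by their M21 class where quantified. The highest of those quantified, by mean TPM, was Gm7278, at 0.330 and 4.10 TPM.

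Azin2 (chr4:128930233-128962442, - strand), the antizyme inhibitor known from testis and brain, was at 222.9 and 184.5 TPM (204 ± 27.1, SD, n = 2) from 16622 and 14283 expected counts. Azin1 (chr15:38487427-38519266, - strand), the broadly expressed inhibitor, was at 175.7 and 183.7 TPM (180 ± 5.62, SD, n = 2) from 4711 and 5610 expected counts. Both libraries of Azin2 were above both of Azin1, but the lower Azin2 value lay 0.820 TPM above the higher Azin1 value, and the difference of means, 24.0 TPM, was under the SD of Azin2. Azin2 over Azin1 was 1.27 in replicate 1 and 1.00 in replicate 2. Relative to Odc1, Azin1 was at 0.645 and 0.660, and Azin2 at 0.818 and 0.663. Together the inhibitors reached 0.177 and 0.153 times the summed TPM of the antizymes they bind, or 0.105 and 0.0846 times with protein-coding transcripts alone.

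The transcripts of the inhibitors differed in kind. Azin2 was almost wholly the coding transcript Azin2-201, at 96.8% and 95.6% of its TPM. Azin1 was led by Azin1-208, a transcript of 622 bases and 3 exons that is annotated as a processed transcript without a coding sequence. It took 91.5% and 88.0% of the TPM of Azin1 (160.9 and 161.7 TPM). The 4 coding transcripts of Azin1 together had 11.8 and 18.3 TPM, which is 6.71% and 9.95% of the gene.
The exon of Azin1-208 that no other model of the gene contains is printed because it tells the non-coding transcript from the coding ones. It has 142 bases on the minus strand.
Azin1-208 exon (chr15:38517817-38517958, mm10, - strand): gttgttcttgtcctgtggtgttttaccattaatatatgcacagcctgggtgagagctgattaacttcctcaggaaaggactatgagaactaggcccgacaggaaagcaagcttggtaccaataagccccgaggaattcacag
By expected counts the lead of Azin1-208 was smaller. It held 2729 of 4711 counts in replicate 1, or 57.9% (95% exact binomial interval 56.5% to 59.3%), and 2828 of 5610 in replicate 2, or 50.4% (49.1% to 51.7%). Such intervals cover counting error only, and not the program's choice between transcripts that share exons. None of the 76-base windows of Azin1-208, Azin1-201 or Azin2-201 occurs in a transcript of another gene read in its transcribed direction. That search does not cover genes that overlap on the other strand. With coding transcripts alone, Azin2 was 18.5 and 9.91 times Azin1, and Azin1 was 0.0433 and 0.0657 times Odc1. The same comparison left Oaz3 over Oaz1 at 6.70 and 7.30.

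**Figure D3:**
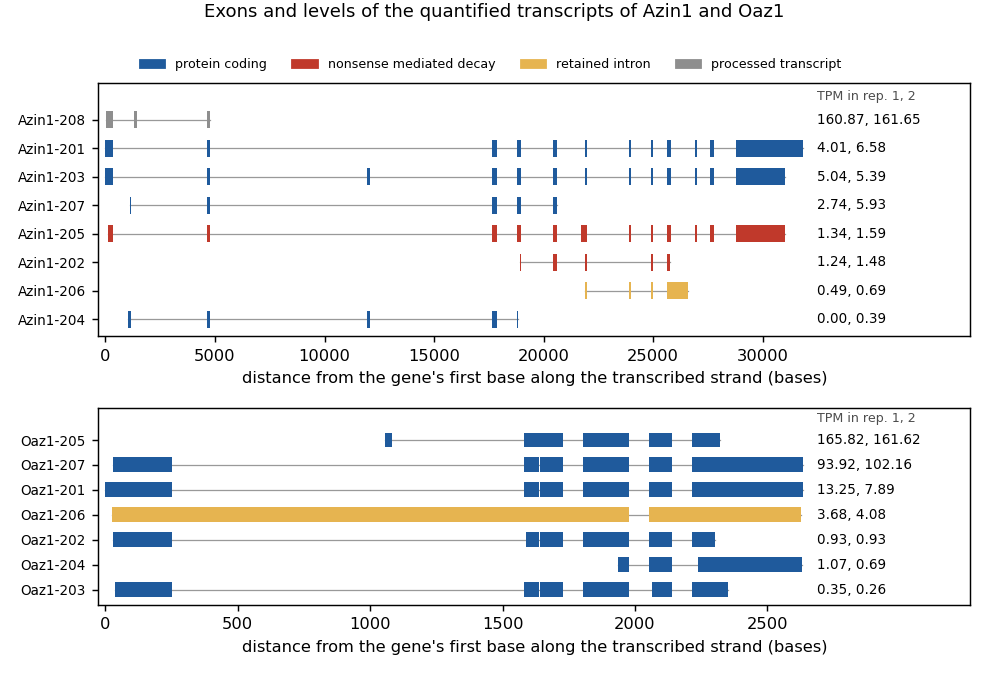
Exons of the quantified transcripts of Azin1 (upper panel) and Oaz1 (lower panel), drawn as distance in bases from the gene's first base along the transcribed strand and coloured by annotated class, with the TPM in replicate 1 and replicate 2 at the right. Azin1-208, at 160.87 and 161.65 TPM, has 3 exons at the start of the gene. The gap inside an exon of Oaz1-207 is the skipped base of the frameshift site, which Oaz1-205 keeps. The width of that gap may not be to scale at this resolution.

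Below these genes the levels dropped by an order of magnitude. Amd1 (chr10:40287458-40302186, - strand), S-adenosylmethionine decarboxylase, which supplies the aminopropyl donor, was at 11.6 and 13.7 TPM (12.7 ± 1.44, SD, n = 2) from 1412 and 1728 expected counts. Its near-identical copy Amd2 differs at 1 of 1002 coding bases and was listed at 0 counts in replicate 1 and at 171 counts and 1.36 TPM in replicate 2. As 81.7% of the 76-base windows of Amd1 occur in another gene, the split between Amd1 and Amd2 is uncertain.

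Srm (chr4:148591503-148594993, + strand), spermidine synthase, was at 10.7 and 9.59 TPM (10.1 ± 0.785, SD, n = 2), and 95.92% and 95% of it was the coding transcript Srm-201. Sms (chrX:157443855-157492287, - strand), the X-linked spermine synthase, was the lowest of the 10 genes at 2.66 and 2.91 TPM (2.79 ± 0.177, SD, n = 2) from 176 and 240 expected counts. Sms over Srm was 0.249 and 0.303, or 0.0331 and 0.0867 with protein-coding transcripts alone. For comparison, the 496 protein-coding genes of the X chromosome at 1 TPM or more in both libraries had a median of 5.48 TPM, and such genes of all nuclear chromosomes 12.9 TPM.

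The leading transcript of Sms was Sms-204, annotated as a target of nonsense-mediated decay, at 73.9% and 64.0% of the gene's TPM. The coding transcript Sms-201 took 12.6% and 27.0%. Sms-204 lacks an exon that is coding in Sms-201. The exon has 115 bases, which leaves a remainder of 1 when divided by 3, so leaving it out shifts the reading frame, and it is shown for that reason.
Sms exon (chrX:157455994-157456108, mm10, - strand): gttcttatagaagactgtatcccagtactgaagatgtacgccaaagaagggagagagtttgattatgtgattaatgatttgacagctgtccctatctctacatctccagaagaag
In expected counts, Sms-204 held 60.2% (95% exact binomial interval 52.6% to 67.5%) and 43.6% (37.4% to 50.3%), and Sms-201 held 27.0% (20.8% to 34.5%) and 48.4% (41.9% to 54.9%). The leading transcript by counts was thus Sms-204 in replicate 1 and Sms-201 in replicate 2. Of the 76-base windows of Sms-204, 57.2% occur in the pseudogenes Sms-ps, Gm6292, Gm7270 or Gm8234. Of these, Sms-ps was given 0.240 and 0.470 TPM, and Gm6292 and Gm7270 were listed at 0.

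Sat1 (chrX:155213132-155216449, - strand), the X-linked spermidine/spermine acetyltransferase, was at 4.60 TPM in replicate 2 and 10.7 TPM in replicate 1 (7.64 ± 4.29, SD, n = 2). As a ratio, it differed most between the libraries among the 10 genes. Its expected counts were 185 in replicate 2 and 416 in replicate 1, and the deposited intervals, 4.13 to 5.65 TPM and 9.80 to 12.1 TPM, did not overlap. The coding transcript Sat1-201 stood at 1.77 TPM in replicate 2 and 5.15 TPM in replicate 1, which is 38.6% and 48.2% of the gene. Sat1-207, annotated as a target of nonsense-mediated decay, stood at 0.670 TPM in replicate 2 and 0.470 TPM in replicate 1, which is 14.6% and 4.39% of the gene. In expected counts Sat1-207 held 16.3% of the gene in replicate 2 (95% exact binomial interval 11.2% to 22.3%) and 4.87% in replicate 1 (2.96% to 7.33%), from about 30 and 20 counts.
Sat1-207 contains an exon of 110 bases that is not in Sat1-201, and 110 leaves a remainder of 2 when divided by 3. The exon is shown because it tells Sat1-207 from Sat1-201. In cultured cells this kind of Sat1 exon is known to be used more when polyamines are scarce. Polyamines were not measured here, and whether they bear on the Sat1 values was not tested.
Sat1-207 exon (chrX:155215121-155215230, mm10, - strand): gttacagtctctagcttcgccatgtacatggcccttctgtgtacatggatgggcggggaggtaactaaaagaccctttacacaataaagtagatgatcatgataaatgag
Retained-intron transcripts made up 36.2% of Sat1 in replicate 2 and 39.8% in replicate 1.

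The libraries were then compared gene by gene on expected counts scaled by TMM, a method that sets the bulk of genes to no difference. The log2 ratio is replicate 2 over replicate 1, with a 95% exact binomial interval for counting error. With 1 library on each side it has no replicate check. Sat1 had a log2 ratio of -1.25 (-1.5 to -0.99), and was the 1 gene of the 10 past 1.5-fold. Among all 15533 genes at 1 TPM or more in both libraries, 7.03% were past 1.5-fold in either direction. Sat1 was also lower in replicate 2 by over 2-fold, as were 0.991% of the 15533 genes. Beside this difference, the 5 peritubular markers, among them the smooth muscle genes Acta2 and Myh11, were all lower in replicate 2, with a sum of 140 TPM in replicate 2 and 296 TPM in replicate 1. Epididymis markers were lower in replicate 2 at 7 of 8 genes by TPM, for example Crisp1 at 0.2 TPM in replicate 2 and 454 TPM in replicate 1. Adam7, Ltf, Lcn5 and Lcn8 were at 0 TPM in replicate 2. For Lcn5 the direction is uncertain, since its deposited posterior mean was 11.73 TPM in replicate 2 and 7.36 TPM in replicate 1. Macrophage markers summed to 42.7 TPM in replicate 2 and 46.2 TPM in replicate 1. Sertoli and Leydig sums were higher in replicate 2: none of 7 Sertoli markers was lower in replicate 2, with sums of 1937 TPM in replicate 2 and 1486 TPM in replicate 1, and 1 of 5 Leydig markers was, with sums of 5558 and 4486 TPM. The part of these differences in the Sat1 value was not tested.

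Azin2 had a log2 ratio of -0.30 (-0.33 to -0.26) and Srm of -0.21 (-0.40 to -0.02), both lower in replicate 2. Sms at 0.37 (0.08 to 0.66), Amd1 at 0.21 (0.11 to 0.32), Azin1 at 0.18 (0.12 to 0.23) and Oaz3 at 0.09 (0.08 to 0.10) were higher in replicate 2. The intervals of Oaz1, Oaz2 and Odc1 included 0. The interval left out 0 for 7 of the 10 genes, as it did for 57.7% of the 15533 genes. Of those 7, 4 were higher and 3 lower in replicate 2. The sign of the Oaz2 ratio (0.0014) turned with DESeq2 size factors and by TPM. The median size of the log2 ratio, without its sign, was 0.19 over the 10 genes and 0.17 over the 15533 genes. Apart from Sat1, the 10 genes lay within the range that held the central 95% of those genes, -0.70 to 0.64.

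**Figure D4:**
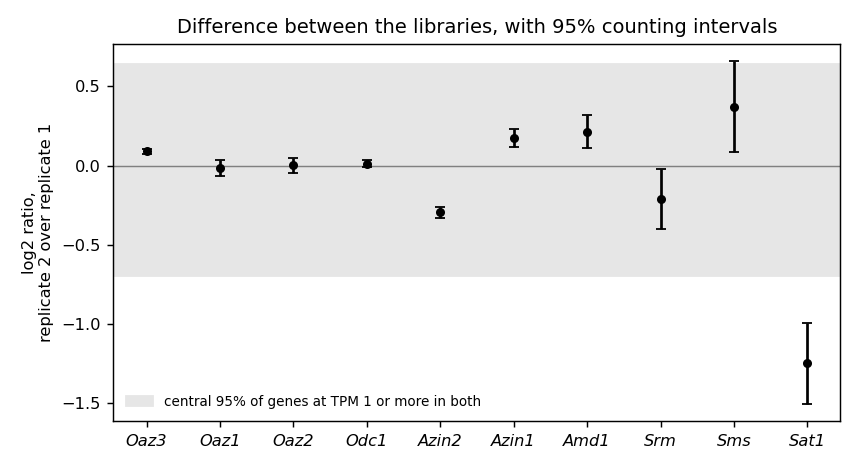
Log2 ratio of TMM-scaled expected counts, replicate 2 over replicate 1, for the 10 genes, with 95% exact binomial counting intervals as bars. The grey band, -0.70 to 0.64, holds the central 95% of the 15533 genes at 1 TPM or more in both libraries; Sat1, at -1.25, lies below it.

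From high to low, the order by mean TPM was Oaz3, Oaz1, Odc1, Azin2, Azin1, Oaz2, Amd1, Srm, Sat1 and Sms. The libraries of neighbouring genes overlapped for Oaz1 and Odc1 and for Srm and Sat1. All 10 genes were at 1 TPM or more in both libraries, as were 62.1% of nuclear protein-coding genes. Their median was 155 TPM, against 3.57 TPM over the 21461 nuclear protein-coding genes. Over those at 1 TPM or more in both libraries the median was 12.9 TPM, and 6 of the 10 genes were above it. The median of the 10 genes lies between Azin1 and Oaz2, which were only partly coding. Protein-coding transcripts took 6.71% and 9.95% of the TPM of Azin1 and 59.03% and 70% of that of Oaz2. The 10 genes summed to 2963 and 3078 TPM, and held 0.270% and 0.275% of all expected counts.

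The rest of polyamine metabolism was described from a list of 27 further genes, of which 21 were at 1 TPM or more in both libraries, with a median of 7.14 TPM over the list. Hypusination, the use of spermidine to modify a translation factor, had the highest median of the groups, 28.7 TPM, and all 4 genes were detected. Eif5a, the factor modified, was at 550 and 606 TPM, Dohh, the hydroxylase of the second step, at 43.1 and 34.5 TPM, and Dhps, deoxyhypusine synthase, at 19.7 and 17.3 TPM. The paralog Eif5a2 was at 4.16 and 4.77 TPM.

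Polyamine breakdown was detected at 4 of 4 genes, with a median of 12.6 TPM. Satl1, a relative of Sat1, was at 19.6 and 20.4 TPM, and Smox, spermine oxidase, at 17.1 and 19.2 TPM. Sat2, another relative, was at 6.18 and 8.10 TPM, and Paox, which oxidises acetylated polyamines, at 5.17 and 4.08 TPM. Both libraries of Satl1 and Smox were above both libraries of Sat1.

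Of the 8 genes of S-adenosylmethionine supply and methionine salvage, 7 were detected, with a median of 9.49 TPM. Mat2a, a catalytic subunit that makes S-adenosylmethionine, was highest at 33.8 and 47.4 TPM, and Mat1a, its liver form, was at 0.120 and 0.130 TPM. Mat2b, the regulatory subunit, was at 11.2 and 9.61 TPM. Among the salvage enzymes, Enoph1 was at 25 and 25.16 TPM, Apip at 17.0 and 14.7 TPM and Mri1 at 10.7 and 6.44 TPM. Mtap, which takes up the by-product of both synthases, was at 1.80 and 1.52 TPM, and Adi1 at 3.33 and 3.56 TPM.

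Ornithine and arginine supply was detected at 2 of 4 genes. Oat, ornithine aminotransferase, was at 28.1 and 28.3 TPM, whereas the arginases were low, with Arg2 at 1.74 and 1.01 TPM and Arg1 at 0.04 and 0.11 TPM. Agmat was listed at 0 in replicate 1 and at 0.06 TPM in replicate 2. On TMM-scaled counts, Arg2 was the 1 gene of the 21 detected that was past 1.5-fold between the libraries, against 7.03% of all 15533 genes. It had 52 counts in replicate 2 and 86 in replicate 1. Mri1, which was past 1.5-fold by TPM, had a log2 ratio of -0.41 on the scaled counts and was within 1.5-fold there.

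Transport was detected at 4 of 6 genes, with a median of 3.04 TPM. Slc3a2, a heavy chain shared by amino acid transporters and linked to polyamine export, was at 62.0 and 63.7 TPM, and Atp13a2, a lysosomal polyamine exporter, at 36.1 in both libraries. Atp13a3 was at 3.96 and 5.11 TPM and Slc18b1, a vesicular polyamine transporter, at 1.43 and 1.66 TPM. Slc22a3, an organic cation transporter, was at 0.220 and 0.120 TPM, and Slc22a2, of the same family, was listed at 0 in both.

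**Figure D5:**
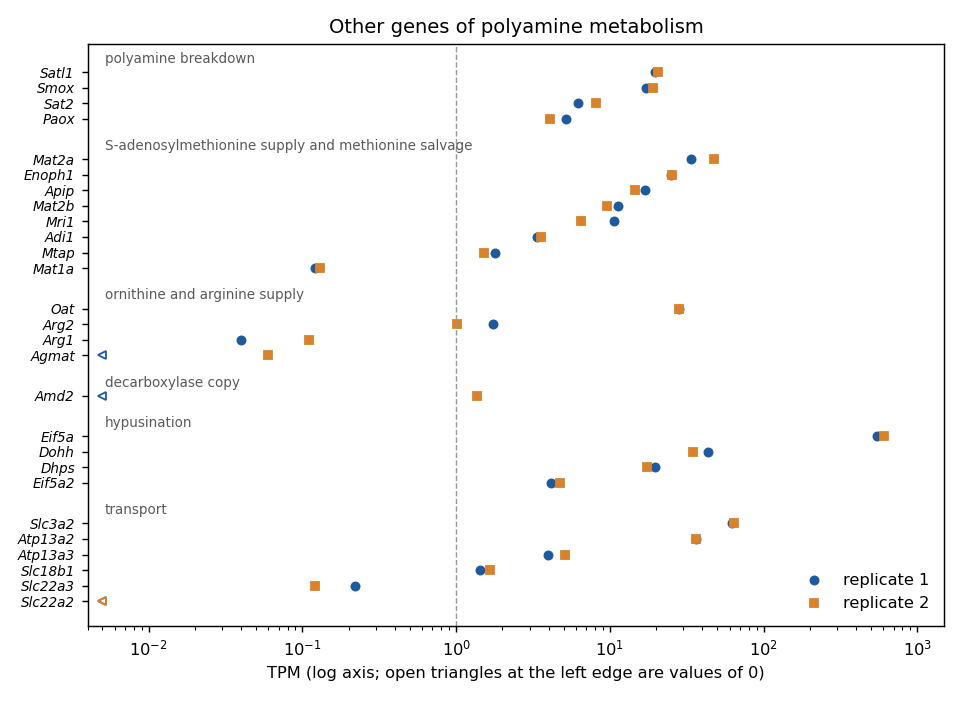
Deposited TPM (log axis) of 27 other genes of polyamine metabolism in replicate 1 (circles) and replicate 2 (squares), by group; the dashed line is the detection minimum of 1 TPM. Eif5a stands at 550 and 606 TPM, the highest of the list, and Slc22a2 was listed at 0 in both libraries.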

How the data were processed

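The 2 libraries were, per the labels, stranded pairs of 76-nucleotide reads from RNA longer than 200 nucleotides, depleted of ribosomal RNA, selected for poly(A) and mixed with spike-ins. Per the file headers, the deposited tables give expected counts, TPM, FPKM and, for transcripts, the percent of the gene's TPM. The authors computed them from alignments of 1 replicate to the transcriptome on mm10 with annotation M4, per the deposited readme. What aligned the reads, what assigned them to transcripts and whether strand was used in counting is not stated in those sources. The deposited FPKM values and the splice junctions and contigs on mm9 were not used for the results.

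Names, classes, positions and sequences came from GENCODE M21 by unversioned identifier, which matched 42462 of 43346 Ensembl genes and 47 of 48 transcripts of the 10 genes. M4 and M21 models can differ: Oaz3, Odc1 and Amd1 have 1 quantified transcript each and 8, 8 and 4 in M21. The M21 models of the quantified Oaz3 and Odc1 transcripts are shorter than the models used for TPM. TPM depends on the model's length.

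TPM was used as deposited. Expected counts were rounded and scaled with TMM in edgeR 4.0.16 (factors 0.998 and 1.00, from 19534 genes), or with DESeq2 1.42.0 size factors (0.973 and 1.03) as an alternative. Intervals are 95% Clopper-Pearson. Detection meant 1 TPM or more in both libraries. A transcript was named at a mean share of at least 10% or a difference of over 10 points between libraries. The transcripts Oaz2-201 and Azin1-201 and the copies Oaz2-ps, Sms-ps, Gm6292, Gm7270, Gm8234, Gm7278 and Gm15645, and the overlapping genes, were named after their values were seen. The 10 genes, the wider list and the marker lists were chosen with earlier results of these data known. The wider list counts 27 genes after 1 gene was left out, which is not reported here.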

Additional observations from a re-analysis of the deposited data

How the results depend on the processing

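As ratios of expected counts, not divided by length, Oaz3 over Oaz1 was 11.4, Oaz2 over Oaz1 1.13 (above 1, where the TPM ratio was below it), Oaz3 over Oaz2 10.1, Azin1 over Odc1 0.193, Azin2 over Odc1 0.582, Azin2 over Azin1 3.04, Sms over Srm 0.456, the antizyme sum over Odc1 3.27 and the inhibitors over the antizymes 0.237. With protein-coding transcripts alone, added after seeing the data, Oaz2 over Oaz1 was 0.304, Oaz3 over Oaz2 23.1, Azin1 over Odc1 0.0545, Azin2 over Azin1 14.2, Sms over Srm 0.0599 and the inhibitors over the antizymes 0.0946. Adding 1 TPM put Sms over Srm at 0.341. The share of genes past 1.5-fold was 15.1% with at least 10 counts on average and 22% without a filter beyond 1 count, and the share lower by over 2-fold 4.11% and 6.86%. Rescaling TPM to protein-coding genes moved 9 of 10 levels by more than 1 SD, and posterior means moved 2 levels and 3 leading transcript shares. DESeq2 size factors left the 10 log2 ratios within their counting intervals, with Oaz2 at -0.0021 in place of 0.0014, and TPM ratios put 3 outside them. Leaving out 1 of 2 libraries cannot move a mean by 1 SD, so it says nothing of stability. No paired analysis was possible because the labels give 1 group. Depth limits the transcript shares of Sms and Sat1 most, since these genes had 176 to 416 counts per library.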

Other observations

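Several of the 10 genes overlap or resemble other annotated genes. On the other strand, Oaz3 overlaps Tdrkh over 2255 bases and Mrpl9 over 598 bases, which stood at 4.36 and 6.21 TPM and at 14.8 and 14.8 TPM in replicates 1 and 2. Azin2 overlaps the antisense gene Gm15904 over 4191 bases, at 6.51 and 7.79 TPM. Each of these partners was far below the gene it overlaps. Azin1 overlaps the antisense gene Gm49077 over 481 bases, and Gm49077 was not quantified, so its level is not known here. Oaz2-ps was at 1.41 and 0.580 TPM, and the Odc1 pseudogene Gm15645 at 1.92 and 1.48 TPM. Gm7278, which shares 76-base windows with Odc1, had 206 expected counts in replicate 2 and 15.8 in replicate 1.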
